A study of Mus musculus with 40 samples.

Results

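The 10 genes described here, linked to blood vessels, are among 43629 in the count table of the mouse amygdala, a group of brain nuclei that weigh emotional and social stimuli. Clec14a, Sh2d3c and Nrarp were chosen for lower counts after social interaction than in naïve mice; being selected on those values, they are given in these responses as a description, with no test. Nostrin, Cldn5, Flt1, Kdr, Tek, Esam and Hey1 were chosen as markers of endothelium, so that their responses could be tested. All 10 were counted in every library and passed the filter on low counts in each comparison.

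The tissue came from the left brain hemisphere of male Swiss Webster mice aged 10 weeks. Colonisation differed: CON mice had conventional microbes, GF mice were germ-free, and exGF mice left the germ-free unit after weaning and were kept on bedding that CON mice had used. Naïve mice gave 4 libraries in each of the groups CON, GF and exGF, named P with a number, and each was a pool of animals. Mice that had met a conventional male mouse in a 3-chamber test 1 hr earlier gave the single-animal libraries named S, 12 in GF-SI and 8 each in CON-SI and exGF-SI. Social interaction (SI) against naïve therefore also sets single animals against pools, and tested mice against mice for which no handling in a test arena is described, which cannot be told apart. Pools were of 2 animals by the methods and of 2 to 3 by the labels, while GF-P2 is noted as holding 1 animal. Breeding pairs differed between CON mice and the germ-free line, from which GF and exGF mice both came.

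Endothelial cells line blood vessels, and in brain they are sealed by tight junctions into a blood-brain barrier. Vascular endothelial growth factor (VEGF) reaches them through the receptor kinase KDR, while FLT1 binds the same ligand and mostly holds it back. Notch receptors, once cut after binding a ligand on a neighbouring cell, send their inner domain to the nucleus, where it joins RBPJ and turns on genes such as Hey1, Hes5 and Nrarp. NRARP in turn destabilises the Notch inner domain and so limits the signal. Notch targets are also used by glia and neural precursors, so that Hey1 and Nrarp in whole tissue are not read from vessels alone.

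Library totals ran from 7291810 to 19961958 counts (median 14512696.5). Gm42418, a gene that overlaps ribosomal RNA sequence, took 6.23% to 32.3% of counts in exGF-S7, exGF-P1, exGF-P2, CON-P1 and CON-P3 and at most 1.75% in the other 35 libraries. The CON-SI and exGF-SI responses of each gene are therefore also given without these 5 libraries, and GF and GF-SI held none of them. Leaving them out keeps CON-P2 and CON-P4 as the only naïve CON libraries, and exGF-P3 and exGF-P4 as the only naïve exGF libraries. For a call lost there, fewer libraries and less ribosomal RNA cannot be told apart. The 23 other endothelial markers on a list, among them Pecam1, Cdh5 and Vwf, were above 0 in all 40 libraries, and their summed level was 314 to 447 CPM (counts scaled by library size) for CON, 313 to 430.3 for GF, 354 to 414 for exGF, 355 to 474 for CON-SI, 370.4 to 500.5 for GF-SI and 362 to 451 for exGF-SI. These ranges overlap. The 6 of 6 markers of amygdala nuclei were above 0 in all libraries, which shows their presence and not an equal dissection. Their summed level had medians of 288, 270 and 272 CPM in CON, GF and exGF. In CON-SI, GF-SI and exGF-SI the medians were 226, 262 and 241 CPM. Of these markers Lmo3 was called lower in CON-SI (log2 -0.67, adjusted p = 0.0918 by edgeR). Markers of the neighbouring striatum summed to 163 CPM in GF-P1, where the GF median was 73.6. The part of dissection in the results was not tested. In such bulk tissue, fewer cells of a type and less RNA per cell cannot be told apart.

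To show what regulatory letters lie there, sequences just upstream of the start of transcription are printed for the 3 genes chosen for their fall (RefSeq, GRCm38.p6, 250 bases each). Capitals mark GGAAG, the core bound by ETS factors that many endothelial promoters hold, searched on both strands as was TGGGAA, the core bound by RBPJ; these motifs share letters and may overlap. The Clec14a window is chr12:58269259-58269508 on the minus strand. Its last bases lie inside the gene as annotated by GENCODE, which reaches 58269290, because the RefSeq start lies further in. The Sh2d3c window is chr2:32727439-32727688 on the plus strand, inside the span of its longer transcripts. The Nrarp window is chr2:25180508-25180757 on the plus strand.
Clec14a: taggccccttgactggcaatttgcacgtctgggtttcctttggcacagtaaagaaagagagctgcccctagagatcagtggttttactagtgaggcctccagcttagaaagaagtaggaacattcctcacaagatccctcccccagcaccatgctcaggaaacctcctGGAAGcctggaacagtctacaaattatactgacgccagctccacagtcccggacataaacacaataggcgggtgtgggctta
Sh2d3c: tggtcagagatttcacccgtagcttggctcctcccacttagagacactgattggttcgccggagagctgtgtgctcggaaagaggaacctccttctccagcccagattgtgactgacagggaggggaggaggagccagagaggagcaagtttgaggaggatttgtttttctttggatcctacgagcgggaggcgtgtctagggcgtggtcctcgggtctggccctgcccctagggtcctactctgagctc
Nrarp: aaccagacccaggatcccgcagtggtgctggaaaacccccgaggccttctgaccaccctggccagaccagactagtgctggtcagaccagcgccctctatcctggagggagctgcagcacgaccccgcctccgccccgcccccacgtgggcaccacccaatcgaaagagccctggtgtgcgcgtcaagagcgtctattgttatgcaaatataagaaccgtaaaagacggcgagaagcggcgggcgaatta
The Clec14a window held 1 GGAAG, 82 to 78 bases before the RefSeq start, and no TGGGAA. Neither motif was in the Sh2d3c and Nrarp windows. The set of RefSeq windows used held none for Esam and Hey1, which were not searched. Of the 8 other genes, 4 held GGAAG (Clec14a, Nostrin, Flt1 with 3 matches, and Kdr), against 64.1% of 32851 windows of all genes. TGGGAA was in 2, Nostrin and Kdr, against 21.6% of all windows. A match is a run of letters and shows no bound factor.

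Nrarp lies at chr2:25180758-25183339 on the plus strand (GRCm38) and has 1 exon of 2582 bases. In naïve CON its level was 10.8, 10.5, 11.1 and 11.8 CPM in P1 to P4. In naïve GF it was 12.2, 15.6, 12.6 and 12.0 CPM, and in naïve exGF 12.0, 11.4, 11.9 and 9.68 CPM. After social interaction the lowest, median and highest libraries held 4.40, 7.60 and 8.99 CPM in CON-SI. In GF-SI these were 6.59, 8.55 and 10.8 CPM, and in exGF-SI 5.69, 7.27 and 8.41 CPM. Every SI library lay under every naïve library of its own colonisation group. On the log2 scale the difference was -0.61 ± 0.15 (SE) for CON-SI, -0.62 ± 0.13 for GF-SI and -0.64 ± 0.12 for exGF-SI, values for which the gene was chosen. The fitted GF-SI level was 0.650 times that of GF. Without the libraries rich in Gm42418 the difference was -0.61 in CON-SI and -0.61 in exGF-SI.

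A gene on the other strand, Gm38287, shares 2051 of the exonic bases of Nrarp, and pairs were counted without regard to strand. Read pairs within the shared bases cannot be assigned to either gene. Gm38287 itself held 55 counts over all 40 libraries and at most 4 in a library, while Nrarp held 60 to 215.

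**Figure D1:**
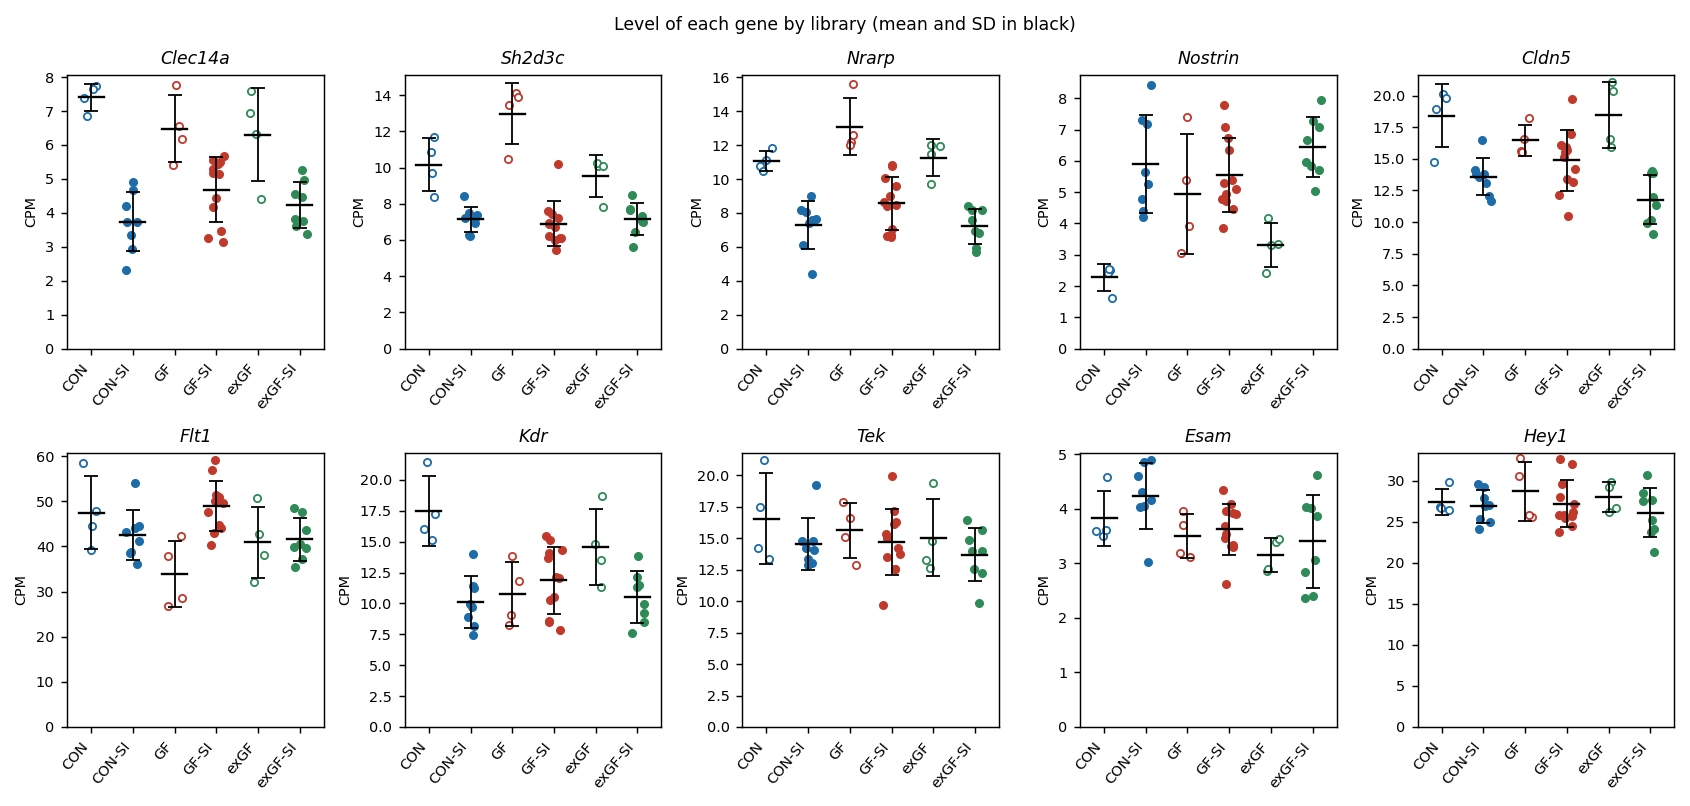
Level of the 10 genes in CPM (vertical axis from 0) in each of 40 libraries by group (horizontal axis), with open points for naïve and filled points for SI libraries, and the mean with SD in black. Nrarp SI libraries lay under the naïve libraries in all 3 colonisation groups, while naïve CON libraries of Nostrin (1.62 to 2.55 CPM) lay under all CON-SI libraries.

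Clec14a encodes a transmembrane C-type lectin of endothelium that takes part in vessel sprouting, and lies at chr12:58264720-58269290 on the minus strand. Naïve CON libraries held 7.38, 6.85, 7.73 and 7.65 CPM, naïve GF 5.40, 7.76, 6.57 and 6.17 CPM, and naïve exGF 6.93, 4.39, 6.31 and 7.58 CPM. The lowest, median and highest SI libraries held 2.32, 3.74 and 4.91 CPM in CON-SI. They held 3.13, 5.15 and 5.67 CPM in GF-SI, and 3.37, 4.14 and 5.28 CPM in exGF-SI. CON-SI and CON did not overlap, but GF-SI reached above the lowest GF library and exGF-SI above exGF-P2. The log2 differences were -0.98 ± 0.17 (SE), -0.47 ± 0.16 and -0.59 ± 0.16 in CON-SI, GF-SI and exGF-SI. The fitted CON-SI level was 0.508 times that of CON. With the Gm42418-rich libraries left out the differences were -0.94 (CON-SI) and -0.75 (exGF-SI). With each library left out in turn, the GF-SI difference ran from -0.55 to -0.38 and the exGF-SI difference from -0.72 to -0.49.

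Sh2d3c, at chr2:32721055-32755512 on the plus strand, encodes an adaptor with an SH2 domain that binds Cas scaffold proteins and takes part in cell migration. In naïve GF it was at 14.1, 13.4, 13.9 and 10.5 CPM. Naïve CON held 11.7, 10.9, 9.71 and 8.36 CPM and naïve exGF 7.81, 10.1, 10.2 and 10.1 CPM. SI libraries ranged from 6.24 to 8.40 CPM with a median of 7.24 (CON-SI), from 5.43 to 10.2 CPM with a median of 6.80 (GF-SI) and from 5.63 to 8.49 CPM with a median of 7.18 (exGF-SI). All 12 GF-SI libraries lay under the 4 GF libraries, whereas the other 2 responses overlapped. The log2 differences were -0.50 ± 0.11 (SE) for CON-SI, -0.91 ± 0.12 for GF-SI and -0.42 ± 0.12 for exGF-SI. The fitted GF-SI level was 0.532 times that of GF, and the SI means were 7.15 CPM (CON-SI), 6.91 (GF-SI) and 7.15 (exGF-SI). When the Gm42418-rich libraries were left out the log2 differences were -0.42 (CON-SI) and -0.54 (exGF-SI). On the opposite strand 6330409D20Rik shares 174 of the exonic bases of Sh2d3c.

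Outside the contrasts that chose them, the test (edgeR's quasi-likelihood test with Benjamini-Hochberg adjustment over all genes, threshold 0.1) called none of these 3 genes. The naïve and the SI libraries are both those of the contrasts that chose them. The values below, with their adjusted p and interval, are therefore a description and are not independent of that choice. Between naïve groups Sh2d3c was 0.37 ± 0.14 higher (log2, SE) in GF than in CON (adjusted p = 0.404) and 0.44 lower in exGF than in GF (log2 difference -0.44 ± 0.14, adjusted p = 0.433). Nrarp in naïve GF lay above all CON and all exGF libraries, with a log2 difference of 0.24 ± 0.12 against CON (adjusted p = 0.502). Between SI groups Clec14a was 0.31 ± 0.15 (log2) higher in GF-SI than in CON-SI (adjusted p = 0.293). Nrarp differed by -0.24 ± 0.11 between exGF-SI and GF-SI (adjusted p = 0.360). The 3 responses of Nrarp differed from each other by -0.04 to -0.01 on the log2 scale (a description), and the 95% interval of the GF minus CON difference was -0.40 to 0.37.

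After social interaction in CON mice, Nostrin rose while Cldn5 and Kdr fell (edgeR, adjusted p = 0.0116, 0.0464 and 0.0223), and the other 4 did not pass. Of all 15220 genes tested, 2.35% were called higher and 1.37% lower. In GF mice Flt1 rose (adjusted p = 0.0106), and 6 markers did not pass, where 7.87% of all genes were called higher and 5.86% lower. In exGF mice Nostrin rose and Cldn5 fell (adjusted p = 0.0137 and 0.0249), where 4.6% were called higher and 3.01% lower. The median log2 change of the 7 was -0.16, 0.05 and -0.10 in CON-SI, GF-SI and exGF-SI, beside -0.01, -0.01 and 0.00 over all genes. In either direction 3 of 7, 1 of 7 and 2 of 7 markers were called, where 3.72%, 13.7% and 7.61% of all genes were. Libraries of SI and naïve mice did not overlap for 2, 0 and 2 of the 7, where 3.48%, 3.07% and 4.33% of 16111 genes did not. The 3 chosen genes are left out of these counts.

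Nostrin, at chr2:69135800-69189330 on the plus strand, encodes an F-BAR protein that binds endothelial nitric oxide synthase and steers its transport away from the membrane. Naïve CON held 1.62, 2.51, 2.43 and 2.55 CPM, all under the CON-SI range of 4.20 to 8.42 CPM (median 5.45). Naïve exGF held 4.18, 2.43, 3.31 and 3.34 CPM, all under the exGF-SI range of 5.05 to 7.95 CPM (median 6.33). Naïve GF stood at 3.91, 3.05, 7.41 and 5.39 CPM and overlapped GF-SI, which ran from 3.84 to 7.79 CPM (median 5.19). The fitted CON-SI level was 2.51 times that of CON and the exGF-SI level 1.94 times that of exGF, with log2 changes of 1.33 ± 0.22 (SE) and 0.96 ± 0.16. In GF-SI the log2 change was 0.17 ± 0.20 (95% interval -0.23 to 0.57, adjusted p = 0.666). Both rises were called with each library left out in turn. Without the libraries rich in Gm42418 the CON-SI change was 1.22 (adjusted p = 0.156) and the exGF-SI change 0.95 (adjusted p = 0.0793), both by edgeR.

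Among partners of NOSTRIN, endothelial nitric oxide synthase (Nos3), the caveolins Cav1 and Cav2 and dynamin 2 (Dnm2), 0 of 4 were called by edgeR in each response. In CON-SI the Nos3 level was 4.65 ± 0.97 CPM (SD, n = 8) against 3.47 ± 0.58 in CON (n = 4), a log2 difference of 0.40 with adjusted p = 0.294 by edgeR. In GF-SI it was 4.25 ± 0.64 CPM against 5.47 ± 1.10, a log2 difference of -0.37 (adjusted p = 0.120).

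Cldn5, the tight junction protein claudin 5 that seals the brain endothelium, lies at chr16:18776847-18778262 on the plus strand. Naïve CON held 14.8, 20.1, 19.0 and 19.8 CPM and CON-SI 11.7 to 16.5 CPM (median 13.7), which reached above CON-P1. Naïve exGF held 20.3, 21.0, 16.5 and 15.96 CPM, all above the exGF-SI range of 9.08 to 14.0 CPM (median 11.7). Naïve GF held 16.5, 15.6, 18.2 and 15.5 CPM and overlapped GF-SI, which ran from 10.5 to 19.7 CPM (median 15.3). The fitted level was 0.732 times that of the naïve group in CON-SI and 0.642 times in exGF-SI, log2 changes of -0.45 ± 0.10 (SE) and -0.64 ± 0.13. In GF-SI the log2 change was -0.15 ± 0.12 (adjusted p = 0.462). The CON-SI call was lost without CON-P2, CON-P3 or CON-P4 (edgeR, adjusted p up to 0.164), and the exGF-SI call without exGF-P2 (adjusted p = 0.105). Without the libraries rich in Gm42418 the changes were -0.55 (adjusted p = 0.152) and -0.43 (adjusted p = 0.244).

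Of other junction genes, Cdh5, Pecam1, Ocln, Jam2, F11r and Marveld2 were not called by edgeR in any response, and Tjp1 was called in GF-SI, where it rose. Tjp1, the scaffold ZO-1 to which claudins attach, was at 177 ± 18.1 CPM in GF-SI (SD, n = 12) and 131 ± 19.9 in GF (n = 4), a log2 change of 0.43 (edgeR, adjusted p = 0.0122). Esam, an adhesion molecule of endothelial tight junctions at chr9:37528078-37538319 on the plus strand, ranged from 2.36 to 4.90 CPM over all groups. Its response was 0.14 ± 0.15, 0.05 ± 0.13 and 0.10 ± 0.20 (log2, SE) in CON-SI, GF-SI and exGF-SI, with groups overlapping in each (edgeR, adjusted p = 0.690, 0.883 and 0.814). The Esam response without the Gm42418-rich libraries was 0.25 (CON-SI, adjusted p = 0.670) and 0.014 (exGF-SI, adjusted p = 0.986) by edgeR.

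**Figure D2:**
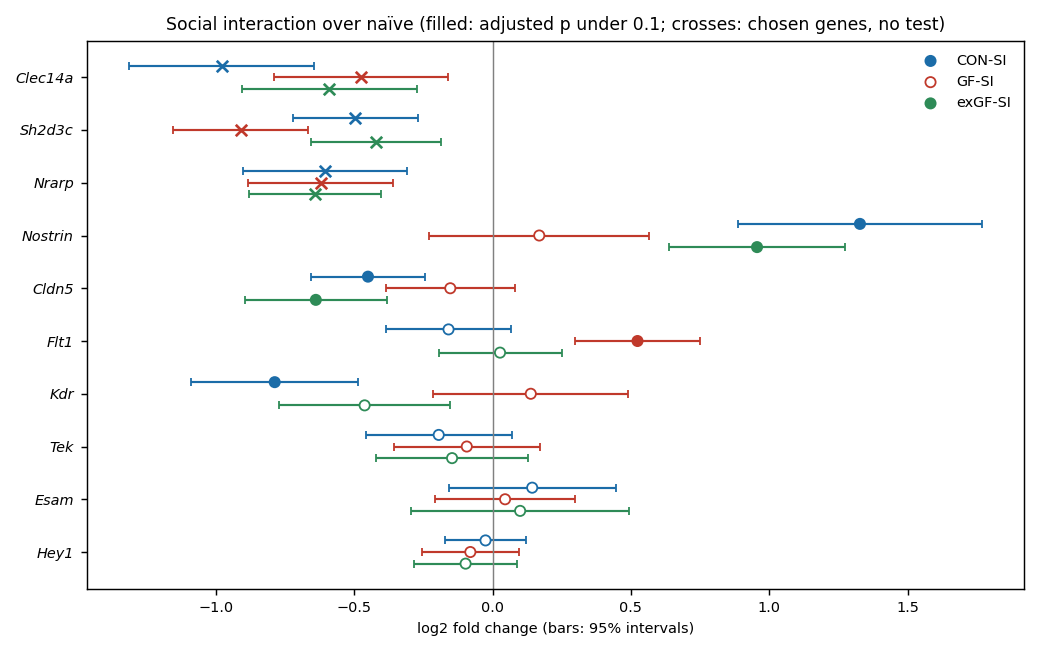
Log2 fold change of SI over naïve libraries (horizontal axis) for the 10 genes (vertical axis) in CON, GF and exGF mice, with bars for 95% intervals, filled points for markers at an adjusted p under 0.1 and crosses for the 3 chosen genes, which carry no test. Nostrin lay at 1.33 in CON, 0.96 in exGF and 0.17 in GF mice, and Flt1 at 0.52 in GF mice.

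Of the VEGF receptors, Flt1 rose in GF-SI and Kdr fell in CON-SI. Flt1 (chr5:147561604-147726011, minus strand) was at 42.3, 28.7, 26.8 and 37.8 CPM in naïve GF and at 40.2 to 59.1 CPM (median 49.7) in GF-SI. These groups overlapped by GF-P1 alone, which lay above 1 GF-SI library (GF-S3). The fitted GF-SI level was 1.44 times that of GF, a log2 change of 0.52 ± 0.11 (SE), and the call was kept with each library left out (edgeR, adjusted p up to 0.0706). Naïve CON held 47.9, 39.3, 58.4 and 44.4 CPM and CON-SI 36.1 to 54.1 CPM (median 42.2). Naïve exGF held 50.7, 42.8, 32.01 and 38.1 CPM and exGF-SI 35.5 to 48.5 CPM (median 40.2). Both pairs overlapped, with log2 changes of -0.16 ± 0.11 (adjusted p = 0.523) and 0.03 ± 0.11 (adjusted p = 0.916). Leaving out the Gm42418-rich libraries gave 0.028 (edgeR, adjusted p = 0.960) and 0.24 (adjusted p = 0.397).

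Kdr (chr5:75932827-75978458, minus strand) was at 17.3, 15.98, 21.5 and 15.1 CPM in naïve CON, each above all CON-SI libraries, which ranged from 7.41 to 14.0 CPM (median 9.81). The fitted CON-SI level was 0.579 times that of CON, a log2 change of -0.79 ± 0.15 (SE). The call was lost without CON-P3 (edgeR, adjusted p = 0.101) and without CON-P1 and CON-P3 together, the libraries of this pair rich in Gm42418 (-0.61, adjusted p = 0.270). In naïve GF the level was 13.9, 8.27, 9.10 and 11.8 CPM, within the GF-SI range of 7.81 to 15.4 CPM (median 12.1), and the log2 change was 0.14 ± 0.18 (adjusted p = 0.695). In naïve exGF it was 18.7, 14.8, 11.3 and 13.5 CPM, overlapping exGF-SI at 7.57 to 13.9 CPM (median 10.6), with a log2 change of -0.46 ± 0.16 (adjusted p = 0.115). Leaving out exGF-S5, the highest exGF-SI library, brought that adjusted p to 0.0616, and DESeq2 called it with all libraries (-0.47, adjusted p = 0.0663). The exGF-SI change without the Gm42418-rich libraries was -0.25 (edgeR, adjusted p = 0.561).

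Of 8 other VEGF pathway genes, edgeR called 0 in CON-SI. Over all genes it called 3.72%, 13.7% and 7.61% in CON-SI, GF-SI and exGF-SI, shares that also stand beside the list counts below. In GF-SI Vegfa, the main VEGF ligand, rose by 0.26 ± 0.09 (log2, SE, adjusted p = 0.0897) and its co-receptor Nrp1 by 0.49 ± 0.18 (adjusted p = 0.0975), while Vegfd, a ligand best known in lymphatic vessels, fell by 0.62 ± 0.22 (adjusted p = 0.0977). In exGF-SI Vegfb, a ligand of FLT1, fell by 0.48 ± 0.11 (adjusted p = 0.0389). The median log2 change of the 8 was -0.21, 0.01 and -0.33 in CON-SI, GF-SI and exGF-SI.

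Tek (TIE2), the receptor of angiopoietins that keeps vessels quiescent, lies at chr4:94739289-94874976 on the plus strand. Its group means lay between 13.7 and 16.6 CPM, and naïve and SI libraries overlapped in each colonisation group. The log2 changes were -0.19 ± 0.13, -0.09 ± 0.13 and -0.15 ± 0.14 (SE) in CON-SI, GF-SI and exGF-SI (edgeR, adjusted p = 0.506, 0.731 and 0.578). With the Gm42418-rich libraries left out they were -0.080 (CON-SI, adjusted p = 0.899) and -0.26 (exGF-SI, adjusted p = 0.522). Of 4 other genes of that pathway, Angpt1, Angpt2, Ptprb and Tie1, only Tie1 was called, by edgeR in exGF-SI. Tie1 fell by 0.56 ± 0.17 (log2, SE, adjusted p = 0.0778), from 3.46 ± 0.23 CPM (SD, n = 4) to 2.33 ± 0.46 (n = 8).

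Hey1, a repressor induced by Notch, lies at chr3:8663359-8667256 on the minus strand and was not called in any response. Group means ran from 26.1 to 28.7 CPM, and the log2 changes were -0.03 ± 0.08, -0.08 ± 0.09 and -0.10 ± 0.09 (SE) in CON-SI, GF-SI and exGF-SI. The approximate 95% intervals, -0.17 to 0.12, -0.26 to 0.09 and -0.28 to 0.09, bound the change in either direction (edgeR, adjusted p = 0.905, 0.634 and 0.587). In the libraries not rich in Gm42418 the changes were 0.024 (CON-SI, adjusted p = 0.953) and -0.027 (exGF-SI, adjusted p = 0.943).

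Of the 5 other Notch target genes, Hes5, Heyl, Hes1, Hey2 and Dtx1, edgeR called 0 in CON-SI, Heyl in GF-SI and Hes5 in exGF-SI, both lower. Hes5, a Notch-induced repressor best known from glia and neural precursors, was at 5.15 ± 1.37 CPM (SD, n = 4) in exGF and 2.67 ± 0.83 (n = 8) in exGF-SI, and fell by 0.93 ± 0.24 (log2, SE, adjusted p = 0.0495). In CON-SI it was at 2.94 ± 1.09 CPM against 5.10 ± 0.84 in CON, a log2 difference of -0.82 ± 0.26 (adjusted p = 0.124). Heyl, a repressor of vascular mural cells, was 1.295 ± 0.42 CPM in GF-SI against 2.05 ± 0.56 in GF and fell by 0.69 ± 0.24 (log2, SE, adjusted p = 0.0778). In CON-SI the Heyl difference was -0.81 ± 0.24 (adjusted p = 0.106). Hey2 differed by 0.46, 0.40 and 0.33 in CON-SI, GF-SI and exGF-SI (adjusted p = 0.158, 0.120 and 0.220).

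Upstream in the pathway, 0 of 5 Notch ligands were called (4 were tested in CON-SI, where Dll3 did not pass the filter). Of 8 receptors and nuclear partners, Maml2, a coactivator, fell in CON-SI and exGF-SI by 0.59 ± 0.11 and 0.58 ± 0.13 (log2, SE, edgeR, adjusted p = 0.0223 and 0.0354), and Notch1 fell in CON-SI by 0.56 ± 0.15 (adjusted p = 0.0904). None of the 8 was called in GF-SI. Of 6 modulators tested, Numb, an inhibitor of Notch, rose in GF-SI and exGF-SI by 0.42 ± 0.15 and 0.39 ± 0.11 (adjusted p = 0.0925 and 0.0723). In GF-SI Adam10, the protease that cuts Notch, rose by 0.25 ± 0.09 (adjusted p = 0.0905), and the glycosyltransferase Rfng fell by 0.35 ± 0.11 (adjusted p = 0.0499).

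Within groups, Hes5 was the gene whose level was most like that of Nrarp: over 40 libraries, with log2 CPM taken less the group mean, Pearson's r was 0.73. Within CON-SI, GF-SI and exGF-SI it was 0.78, 0.82 and 0.71 (8, 12 and 8 libraries), in naïve GF 0.76, and in naïve CON and exGF -0.12 and 0.04, with 4 libraries each. In the 35 libraries not rich in Gm42418 it was 0.75. Chrm5, B130024G19Rik, Exd1 and Tbl2 followed, with r from 0.64 to 0.68. The 23 other endothelial markers had a median r of -0.02 to Nrarp, beside 0.01 over all genes. These values describe libraries that share a group mean and dissection, and carry no test.

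**Figure D3:**
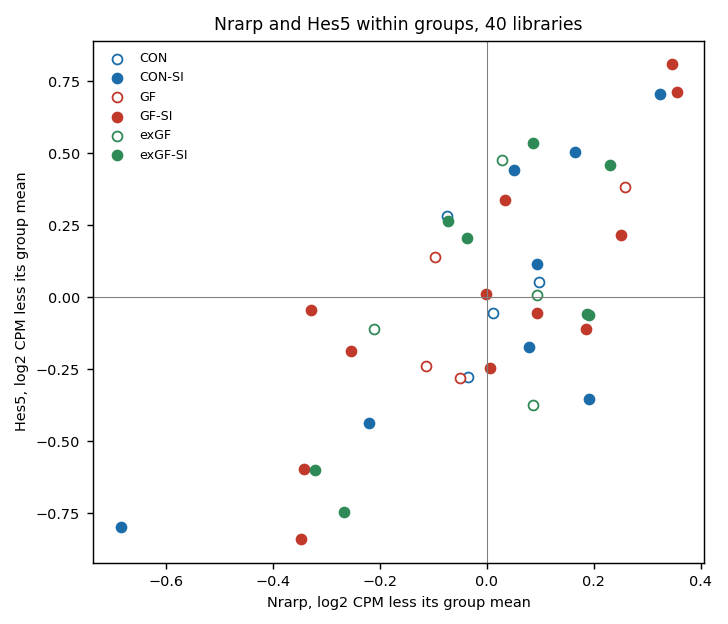
Nrarp (horizontal axis) and Hes5 (vertical axis) in 40 libraries, each as log2 CPM less the mean of its group, with open points for naïve and filled points for SI libraries. Libraries low in one gene were mostly low in the other, with r of 0.73 over all points.

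The likeness between the other members was uneven. Flt1 and Kdr had an r of 0.74, Flt1 and Tek 0.46, and Tek and Esam 0.40, while Esam and Hey1 had -0.47. Clec14a had an r of 0.17 to Nrarp and 0.13 to Sh2d3c, and Sh2d3c had -0.08 to Nrarp. The median r of the 23 endothelial markers was 0.06 to Clec14a, -0.10 to Sh2d3c and 0.37 to the mean of the 7 markers. Genes most like Clec14a were Afdn, Ccdc28a, Krcc1, Csrp2 and Igfbp3 (r 0.58 to 0.63), and those most like Sh2d3c were Ksr2, Slc4a8, Bcl9, Celsr2 and Glg1 (0.71 to 0.75). For the mean of the 7 markers they were Ern1, Thsd1, Sh3tc1, Cr1l and Lsr (0.63 to 0.65).

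Levels per length of joined exons give an order among the genes that depends on the length used. Joined exons held 13504 bases for Flt1, 9030 for Kdr and 5233 for Sh2d3c, while their longest transcripts held 6895, 5924 and 3107. For Tek the lengths were close (4712 and 4654 bases). The order by length of the longest transcript is not reported here. In naïve CON, Cldn5 held 13.004 ± 1.76 CPM per kb (SD, n = 4), Hey1 8.40 ± 0.50, Nrarp 4.29 ± 0.22, Flt1 3.52 ± 0.60, Tek 3.51 ± 0.76, Sh2d3c 1.94 ± 0.28, Kdr 1.93 ± 0.31, Clec14a 1.62 ± 0.09, Esam 1.33 ± 0.18 and Nostrin 1.21 ± 0.23. By joined exons, Flt1 and Tek, Sh2d3c and Kdr, and Esam and Nostrin differed by less than their SD. In CON-SI Nostrin held 3.13 ± 0.82 CPM per kb and Nrarp 2.83 ± 0.55, values within an SD of each other. The value of Nrarp is low where pairs in bases shared with Gm38287 went uncounted.

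Between naïve groups, 0 of the 10 genes were called by edgeR in any comparison, where 0.142% (CON-GF), 0.104% (CON-exGF) and 0% (GF-exGF) of all genes were called. At an unadjusted p under 0.05 there were 3, 1 and 1 of the 7 markers, where 11%, 5.43% and 9.42% of all genes were. Naïve GF differed from CON by 1.06 ± 0.28 (log2, SE) for Nostrin, by -0.69 ± 0.17 for Kdr and by -0.48 ± 0.16 for Flt1 (adjusted p = 0.275, 0.256 and 0.328). Of the 7 markers, Nostrin in GF lay above all CON libraries and Kdr below them, while 5.86% of 16111 genes did not overlap between these groups. Esam in exGF lay below all CON libraries, and 0 markers lay apart between exGF and GF, where 3.57% and 5.05% of genes did not overlap. Nrarp in GF lay above all CON libraries, and Sh2d3c and Nrarp in exGF below all GF libraries. These genes were chosen with the same naïve libraries, so their values are a description. They are part of the 0 of 10 above and are left out of the counts over the 7 markers. Without CON-P1 and CON-P3 the GF minus CON difference was 0.95 for Nostrin and -0.52 for Kdr (adjusted p = 0.750 and 0.768). With all libraries, DESeq2 called Nostrin and Kdr in CON-GF (adjusted p = 0.0798 and 0.0568), with 155 genes in all.

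**Figure D4:**
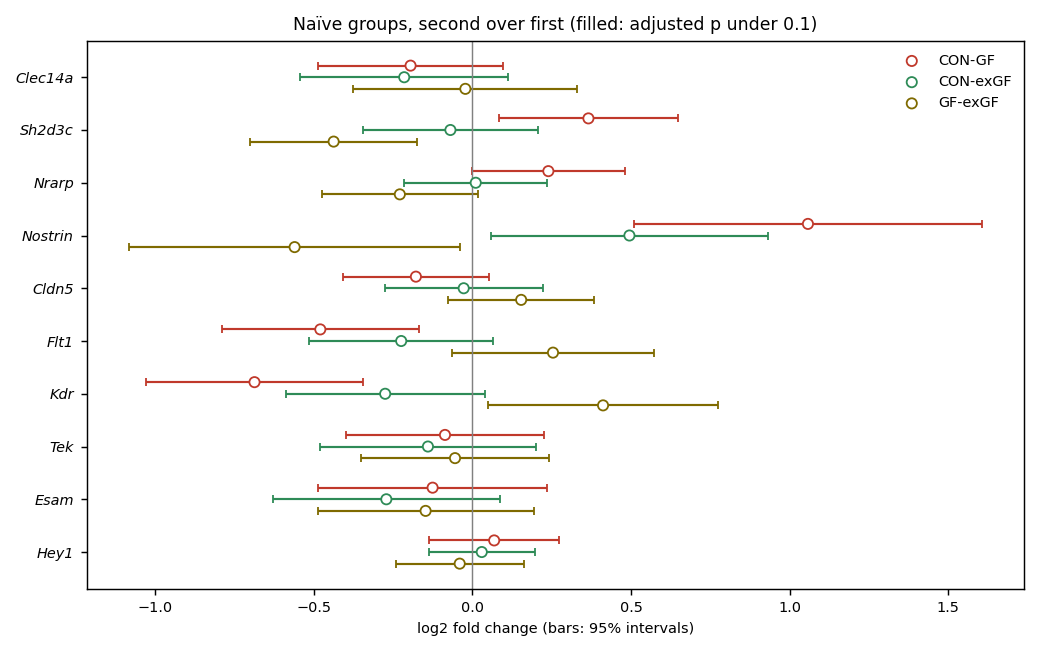
Log2 fold change of the second over the first naïve group (horizontal axis) for the 10 genes (vertical axis), with bars for 95% intervals; no point passed an adjusted p of 0.1. Nostrin lay at 1.06 and Kdr at -0.69 for GF against CON.

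The difference between responses was tested in 1 fit over the 6 groups. For GF minus CON, it was -1.15 ± 0.29 (log2, SE) for Nostrin, 0.93 ± 0.25 for Kdr and 0.68 ± 0.17 for Flt1 (edgeR, adjusted p = 0.109, 0.119 and 0.101), just above the threshold, and 0 of 10 genes were called against 0.0931% of all genes. DESeq2 called all 3 (adjusted p = 0.0337, 0.0428 and 0.0257). The share of all genes called by DESeq2 for this difference, or in the left-out fits below, is not reported here. Those calls therefore stand without a background. Without the libraries rich in Gm42418 the values were -1.04, 0.76 and 0.50 (edgeR, adjusted p = 0.505 for each). Without CON-P4, GF-P1 or GF-P4, edgeR called all 3, and without exGF-P1 it called Flt1, with adjusted p over all left-out libraries of 0.0477 to 0.341 for Flt1 and 0.0744 to 0.341 for Kdr and Nostrin. Naïve CON and GF libraries enter both the naïve comparison and these responses, so that the values above are not independent. The exGF minus CON and exGF minus GF responses gave 0 calls for the 10 genes and 0% of all genes. At an unadjusted p under 0.05 there were 3 of the 7 markers for GF minus CON, 4 for exGF minus GF and 0 for exGF minus CON, where 15.8%, 11.4% and 5.83% of all genes were.

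Between SI groups, 0 of 10 genes were called by edgeR in CON-GF-SI, CON-exGF-SI and GF-exGF-SI, where 1.1%, 1.31% and 0.0995% of all genes were. At an unadjusted p under 0.05 there were 2, 1 and 2 of the 7 markers, where 16.5%, 13.5% and 12.9% of all genes were. For 0 of the 10 genes did the libraries of these groups lie apart, where 0.0807%, 0.205% and 0.0124% of genes did. The log2 differences ran from -0.23 to 0.31, from -0.32 to 0.17 and from -0.33 to 0.22. Flt1 in exGF-SI was 0.24 below GF-SI (log2 difference -0.24 ± 0.07, adjusted p = 0.194 by edgeR), and DESeq2 called it (adjusted p = 0.0927).

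Of 8 transporters of the blood-brain barrier, 4 rose in CON-SI (Slc7a5, Mfsd2a, Slco1c1 and Slc2a1), 2 in GF-SI (Slco1c1 and Abcb1a) and 2 in exGF-SI (Slco1c1 and Mfsd2a), where 2.35%, 7.87% and 4.6% of all genes rose, and 0 fell. Their median log2 change was 0.21, 0.14 and 0.04. Slco1c1, which carries thyroid hormone and is made by astrocytes too, went from 58.3 ± 20.4 CPM in CON to 98.6 ± 20.4 in CON-SI (SD, n = 4 and 8). It went from 58.1 ± 7.79 to 101 ± 13.2 CPM in GF-SI (n = 4 and 12) and from 59.1 ± 9.03 to 90.2 ± 13.4 in exGF-SI (n = 4 and 8). The log2 changes were 0.75, 0.79 and 0.60 (edgeR, adjusted p = 0.0728, 0.000454 and 0.0239). Mfsd2a, a lipid transporter that keeps endothelial transcytosis low, rose by 0.80 ± 0.19 in CON-SI and by 0.67 ± 0.16 in exGF-SI (log2, SE, adjusted p = 0.0515 and 0.0413). In GF-SI its change was 0.54 ± 0.21 (adjusted p = 0.126). Without the libraries rich in Gm42418, none of the transporters was called in CON-SI or exGF-SI.

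Among the 23 other endothelial markers, edgeR called 2 higher in CON-SI (Ly6a and Slco1c1) and 2 higher in GF-SI (Slco1c1 and Abcb1a). In exGF-SI it called 1 higher (Slco1c1) and 2 lower (Tie1 and Eng). Of all genes, 2.35%, 7.87% and 4.6% were called higher in CON-SI, GF-SI and exGF-SI, and 1.37%, 5.86% and 3.01% lower. Slco1c1 and Abcb1a are also counted among the transporters above. The median log2 change of the 23 was 0.08, -0.07 and -0.15. Of 7 targets or members of BMP and ALK1 signalling, which steadies vessels, 0 were called in CON-SI. Smad6 and Id2 fell in GF-SI by 0.86 ± 0.30 and 0.33 ± 0.12 (log2, SE, edgeR, adjusted p = 0.0867 and 0.0875), and Id3, Eng and Id2 in exGF-SI by 0.56 ± 0.17, 0.66 ± 0.20 and 0.43 ± 0.13 (adjusted p = 0.0778, 0.0870 and 0.0892). Klf4, a factor induced by flow, rose in GF-SI by 0.63 ± 0.19 (adjusted p = 0.0473). Of the family and ligand of CLEC14A only Cd248, a pericyte and fibroblast lectin, fell, in GF-SI by 0.74 ± 0.27 (adjusted p = 0.0960), and of 4 genes related to SH2D3C only Bcar3 rose, in exGF-SI by 0.45 ± 0.13 (adjusted p = 0.0759).

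**Figure D5:**
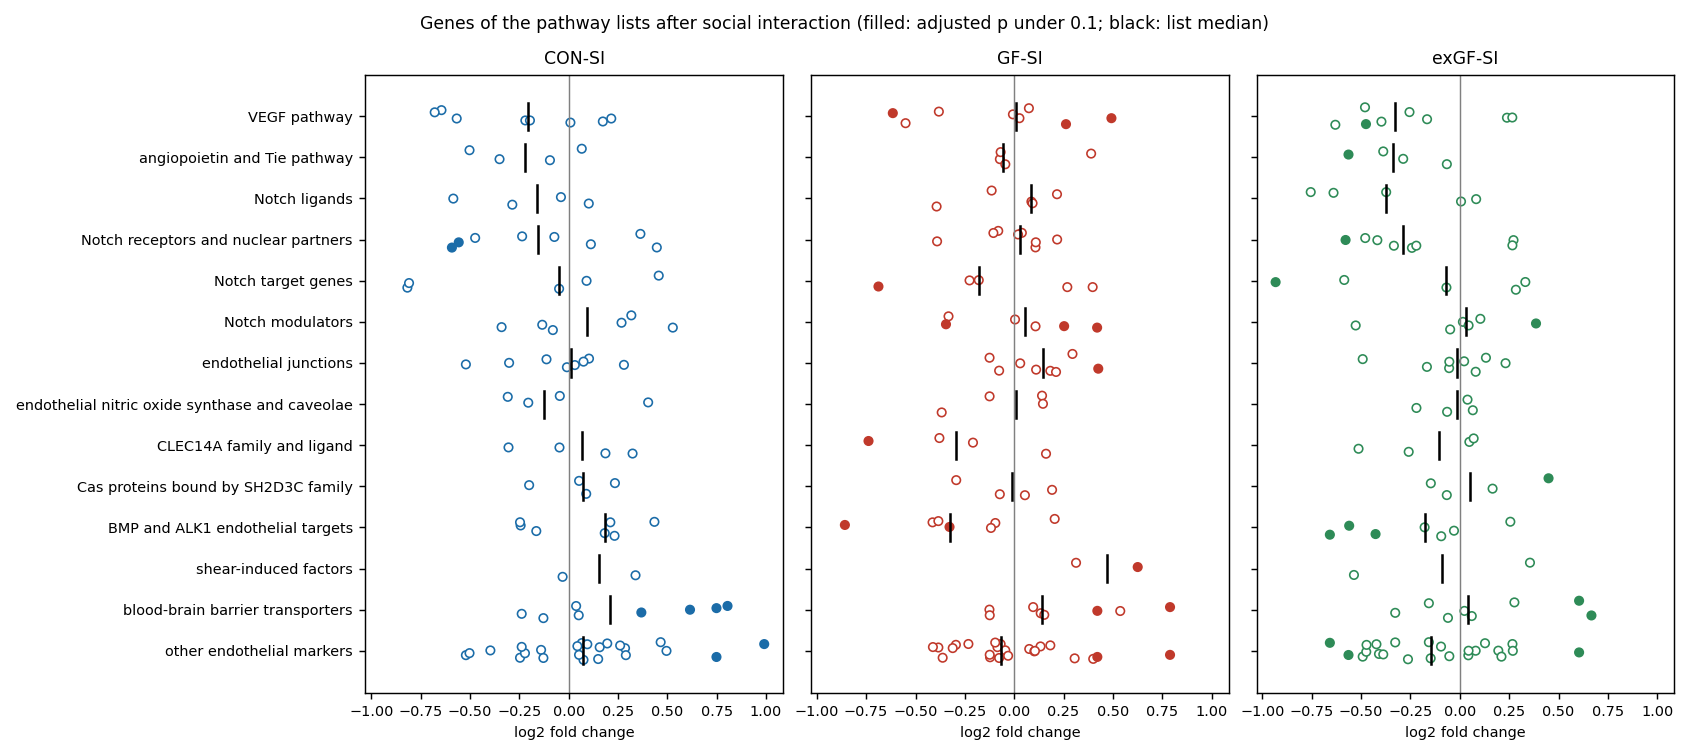
Log2 fold change of SI over naïve libraries (horizontal axis) for each gene of 14 pathway lists (vertical axis), by colonisation group, with filled points at an adjusted p under 0.1 and the list median in black. Filled points among transporters all lay above 0, from 0.37 to 0.80, and those of BMP and ALK1 genes below 0.

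Over the 14 pathway lists, edgeR called 5 of 87 genes higher and 2 lower in CON-SI (5.75% and 2.3%, beside 2.35% and 1.37% of all genes). In GF-SI it called 8 of 88 higher and 6 lower (9.09% and 6.82%), shares near those of all genes (7.87% and 5.86%). In exGF-SI it called 4 of 88 higher and 7 lower (4.55% and 7.95%, beside 4.6% and 3.01%). Of these 32 calls, 3 were kept with each library left out in turn (Maml2 in CON-SI, Slco1c1 and Tjp1 in GF-SI), and a call was lost in up to 14 such fits. Of the 18 in CON-SI and exGF-SI, 0 were kept without the libraries rich in Gm42418, in fits with fewer naïve CON and exGF libraries. Sizes there moved both ways: in CON-SI, Slco1c1 went from 0.75 to 0.80 and Notch1 from -0.56 to -0.33 (log2).

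Markers of cells beside endothelium moved in part. Of 10 pericyte and mural markers, Pdgfrb, the receptor that holds pericytes to vessels, fell in CON-SI, GF-SI and exGF-SI by 0.64 ± 0.15, 0.35 ± 0.12 and 0.53 ± 0.10 (log2, SE, edgeR, adjusted p = 0.0440, 0.0682 and 0.0144). In GF-SI Cspg4 also fell, by 0.48 ± 0.10 (adjusted p = 0.00888), and Kcnj8 rose by 0.65 ± 0.19 (adjusted p = 0.0448). The Pdgfrb call was lost in CON-SI without CON-P2 or CON-P3, and in GF-SI without GF-P1, GF-P2, GF-P3 or GF-S12. In exGF-SI it was kept with each library left out. Without the Gm42418-rich libraries Pdgfrb was not called in CON-SI or exGF-SI (edgeR, adjusted p = 0.275 and 0.163). The summed level of the 10 was 212 to 258, 221 to 238 and 218 to 266 CPM in CON, GF and exGF and 184 to 327, 203 to 269.8 and 186 to 258 CPM after social interaction, and none was at 0. Of 7 astrocyte, 7 oligodendrocyte, 8 neuron and 7 meningeal markers, 0 were called in any response. Of 8 microglial markers C1qa rose in CON-SI, P2ry12 fell in GF-SI, and Cx3cr1 and Csf1r fell in exGF-SI. Without the Gm42418-rich libraries Cx3cr1 was still called (edgeR, adjusted p = 0.0693), while C1qa and Csf1r were not (adjusted p = 0.156 and 0.160). Choroid plexus markers summed to 24.5 to 311 CPM in naïve libraries and to 1039 in GF-S8 and 1486 in exGF-S9. The part of these cells in the results above was not tested.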

How the data were processed

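Gene expression was measured by RNA sequencing. The values are counts per gene as the authors deposited them, with no scaling: reads (paired, 100 bases) from ribodepleted, strand-marking libraries were trimmed with Trimmomatic 0.32, aligned with STAR 2.4.0f1 to GRCm38.p3 and counted over Ensembl genes with HTSeq 0.6.0 without regard to strand. Symbols and coordinates came from GENCODE (42462 of 43629 genes), and promoters from RefSeq. Files of the authors' own comparisons (fold changes, p-values) were not used.

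The genes and lists were chosen with earlier results of these data known. Groups were read from the column names. 0 pairs of libraries were identical, and libraries of 1 group differed by more than counting noise (smallest chi-square per degree of freedom 5.50). Pairs of groups were compared with edgeR 4.0.16 in R 4.3.3 (quasi-likelihood F-test, TMM scaling, filterByExpr, BH adjustment, threshold 0.1), and differences between responses in 1 fit over the 6 groups. P-values measure the spread between libraries, among which naïve ones are pools. Levels are CPM with TMM scaling. All 10 genes are reported. From each list up to 4 genes with the smallest p in a response could be named, and the 5 genes most like a member. The count over the list of junction genes is not reported here. Alternatives were DESeq2 1.42.0, RLE scaling, no filter, 1 fit over the 6 groups, no libraries with over 5% Gm42418, a spline correction for GC content and transcript length and each library left out; that correction was added after seeing the data for the differences between responses. On simulated data, edgeR recovered 60%, 69% and 60% of genes changed by 0.5 (log2) in CON-SI, GF-SI and exGF-SI, and 94%, 96% and 97% of those changed by 1. Between naïve CON and GF it recovered 32% and 90%, so that smaller differences there would mostly be missed. Changes were simulated only in genes above a floor on the mean level, and the rates do not cover genes under it. Python 3.11.15 with pandas 2.3.3, numpy 2.4.6 and matplotlib 3.10.9 was used for the rest.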

Additional observations from a re-analysis of the deposited data

Results flagged for a closer look

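In 50 sets of libraries (10 genes in the 5 groups of 4 to 8 libraries), 8 held a library far from the others by Dixon's criterion, where chance gives about 1 in 20. In naïve CON, Nostrin was lowest in CON-P1 at 1.62 CPM (others 2.43 to 2.55), Esam highest in CON-P3 at 4.58 CPM (others 3.50 to 3.61) and Hey1 highest in CON-P1 at 29.9 CPM (others 26.4 to 26.8), and both libraries are rich in Gm42418. Sh2d3c was lowest in exGF-P1 at 7.81 CPM (others 10.1 to 10.2), also such a library. Nrarp was highest in GF-P2 at 15.6 CPM (others 12.0 to 12.6), the library noted as 1 animal. In CON-SI, CON-S12 was highest for Flt1 at 54.1 CPM (others 36.1 to 44.6) and for Tek at 19.2 CPM (others 12.9 to 14.8), and its summed level of the 23 other endothelial markers, 474 CPM, was also the highest of its group, as was that of 10 pericyte markers (327 CPM). Esam was lowest in CON-S2 at 3.02 CPM (others 4.02 to 4.90).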

How the results depend on the processing

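Of the 6 called marker responses, 0 changed sign under any alternative, while 32 of 105 values not called did, none over 0.19 in size (log2). Counts in the 3 responses include the 3 genes chosen for their fall, which support nothing. Without libraries rich in Gm42418, 0 of 10 genes were called in CON-SI (6 with them, 26 genes of all) and 1 in exGF-SI (5 with them, 155 of all). DESeq2 also called Kdr in exGF-SI. In naïve CON-GF, DESeq2 called 2, no filter 2 and 1 fit over the 6 groups 1, against 0. DESeq2 called 1 in GF-exGF-SI and 3 for the GF minus CON response, where RLE scaling called 1, against 0 in both. Apart from DESeq2 in naïve CON-GF, the share of all genes called by DESeq2, with no filter, in 1 fit or with RLE scaling is not reported here. Those counts stand without a background. With each library left out, 2 to 6 were called in CON-SI (3 without CON-P2, 2 without CON-P3), 3 to 4 in GF-SI, 3 to 6 in exGF-SI (3 without exGF-P2, exGF-P3 or exGF-P4) and 0 to 3 for GF minus CON; the other counts stayed at 0. Signs turned for values near 0: Flt1 (0.028) and Hey1 (0.024) in CON-SI without the Gm42418-rich libraries, and with libraries left out for Flt1 in exGF-SI (-0.077 to 0.15), Tek in exGF-SI (-0.23 to 0.0080), Nostrin in GF-SI (-0.0047 to 0.41), Esam in GF-SI (-0.0081 to 0.11) and Hey1 in CON-SI (-0.050 to 0.013). Adora2a, a striatal marker, turned from -1.97 in GF-SI to 0.49 without GF-P1 (lowest -2.42). With group means kept, 1 of the 5 genes most like Nrarp remained and 0 of those for Clec14a, Sh2d3c and the 7 markers. The causes were not tested. No paired analysis was possible because the columns carry no number that links naïve and SI animals. Nostrin and Esam, with as few as 9 and 20 counts in a library, are limited most by depth.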
